A study of Mus musculus with 6 samples.

Results

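PTP4A1, PTP4A2 and PTP4A3, the phosphatases of regenerating liver (PRL), and their binding partners CNNM1, CNNM2, CNNM3 and CNNM4 were examined in mGLUTag cells, an immortalized male mouse line used as a model of the GLP-1-secreting intestinal L-cell. All probes carrying 1 of these 7 symbols were taken, which gave 15 of the 45281 probes on the array and 7 of 28902 genes. PTP4A1 was chosen by its measured rise at 4 h in these same arrays, and the other members were added because they are its paralogs or partners. The change of PTP4A1 is therefore given as a description, with no test. RNA was taken 4 h (n = 3) or 16 h (n = 3) after synchronization, 6 samples in all, each on 1 array. Every sample came from this line, and all had been held in low serum, exposed to forskolin, which raises cAMP, and returned to growth medium, so that no unsynchronized cells are compared here. The labels do not say whether the samples of a time point were separate cultures, and p-values then measure only the spread between these samples.

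PRL phosphatases are small, prenylated tyrosine phosphatases that sit on the plasma and endosomal membranes. PTP4A1 was first known as an immediate-early gene of regenerating liver. PRL proteins bind tightly to the CNNM proteins, membrane proteins that govern magnesium efflux, and this binding raises intracellular magnesium. Among the CNNM proteins, CNNM4 is known for magnesium export at the basolateral side of the intestinal epithelium and CNNM2 for magnesium handling in the kidney.

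Promoter sequence is shown first, since the cells had been treated to raise cAMP and the time points were chosen on the clock factor BMAL1 (gene symbol ARNTL). RefSeq windows (GRCm38.p6) reaching from 250 bases before to 50 bases after the start site were at hand for 6 of the 7 genes, PTP4A3 being the exception. Both strands were searched for the E-box CACGTG, bound by BMAL1 and CLOCK, the cAMP response element TGACGTCA, its half-site TGACG, the D-box TTATGTAA and the ROR half-site AGGTCA, and the given strand was searched for TATAAA. Of 32851 windows of this length, 7.15% held the E-box, 1.79% the full cAMP element, 20.8% the half-site, 0.938% the D-box, 16.3% the ROR half-site and 8.32% TATAAA. Each full cAMP element also holds a half-site on either strand. Stretches of 30 bases are shown for PTP4A1 and for both genes with a full-length clock or cAMP match, with the motifs named on each line in capitals. Other matches are described in the text, and the Cnnm1 stretch also holds a ROR half-site, read on the other strand, in lower case.
Ptp4a1, half-site (minus strand of chr1:30949854-30949883): ggctgccccgagTGACGtctgcgtcccggg
Ptp4a1, TATAAA and half-site (minus strand of chr1:30949762-30949791): cggcTATAAAggggcggacttgTGACGcag
Cnnm4, full cAMP element (plus strand of chr1:36471562-36471591): ggggcgcggtcTGACGTCAggtcctcggct
Cnnm1, E-box (plus strand of chr19:43440325-43440354): gcaaggggagcaCACGTGgtgacctgcctg

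The window of PTP4A1 held TGACG at 116 and 14 bases and TATAAA at 32 bases upstream of the start site, with no E-box, full cAMP element, D-box or ROR half-site. CNNM4 held the full element 24 bases upstream, and CNNM1 held an E-box 76 bases upstream and another 7 bases after the start. The starts used for PTP4A1 and CNNM1 lay inside the annotated spans of these genes (chr1:30940303-30949877 and chr19:43439069-43497210), not at their outer ends. The half-site was present in 4 of the 6 windows and the ROR half-site in 2, those of CNNM1 and CNNM3. The windows of PTP4A2 and CNNM2 held none of these motifs. The BMAL1 sites that the study examined in the Scgn promoter were noncanonical E-boxes, farther upstream than these windows reach. Sites of that kind were not searched for here. A match is a description of the sequence, and no binding was measured in these arrays.

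The deposited intensities had been background subtracted but not equalized between arrays. The mean intensity of the 4 h arrays was 1.37 times that of the 16 h arrays, and the median probe above noise on all arrays was 1.46-fold brighter at 4 h. Changes are therefore given on the log2 scale after quantile normalization, so that each is relative to the rest of its array. Noise, read from the negative values of every array, was bounded at 9.2 to 14 intensity units, and 14941 probes exceeded this limit on all 6 arrays and are called detected here. The 18S ribosomal RNA probes ranged from 6.90 to 10.55 in mean normalized log2 intensity, with the highest values on 4 h replicates 1 and 3 and 16 h replicate 1. Of 12 L-cell markers, including GCG, 8 were detected and 1, PYY, lay above the limit on no array, as did 4 of 5 enterocyte and all 4 immune markers, whereas 1 of 3 goblet markers (TFF3) and 1 of 5 fibroblast markers (COL1A1) were detected. ARNTL, the positive control of the study, had normalized log2 means of 7.38 ± 0.05 and 6.86 ± 0.07 (SD, n = 3 each) at 4 h and 16 h.

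Of the 15 member probes, 7 were detected on all 6 arrays. They were the single probe of PTP4A1, the 4 probes of PTP4A2, 1 of 2 probes of PTP4A3 and 1 of 2 probes of CNNM2. The other 8 probes exceeded the limit on at most 1 array. Of the 14 probes other than that of PTP4A1, 0 passed the threshold of 0.05 in limma with Benjamini-Hochberg adjustment over all probes, where 0.00883% of all probes did. Among these 14, 1 had an unadjusted p under 0.05, against 5.41% of all probes. After quantile normalization, 2 of the 6 detected among them were lower at 4 h with no overlap between the time points (5.51% of all detected probes). None, 0 of the 6, was higher without overlap (6.12% of all detected probes). The lower probes were that of PTP4A3, whose deposited values overlapped, and PTP4A2 probe ILMN_2725835. The deposited values of the latter were higher at 4 h without overlap, so this count depended on the normalization.

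PTP4A1 (probe ILMN_1223414) had deposited intensities of 872.5, 742.4 and 1002.9 at 4 h and of 424.2, 466.2 and 327.7 at 16 h. The lowest value at 4 h, on replicate 2, was well above the highest at 16 h, also on replicate 2. The means were 873 ± 130 and 406 ± 71.0 (SD, n = 3 each) for 4 h and 16 h, a 2.15-fold difference in brightness against 1.46-fold for the median detected probe. After normalization, the log2 intensities were 9.52, 9.60 and 9.74 at 4 h and 9.11, 9.16 and 9.01 at 16 h, and the time points still did not overlap. The log2 change was 0.52 (SE 0.080), or 1.44-fold. This change exceeded that of 99.7% of detected probes, with 43 of 14941 above it, whereas the ratio of deposited means exceeded that of 97.6%, with 353 above it. Its change was 0.52 among the 3 arrays with the most 18S signal and 0.51 among the 3 with the least. Each set holds 1 array of one time point against 2 of the other, and the cut was made after seeing the data. Because the time points do not overlap, a rise within each set was fixed in advance, so these values are no test.

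**Figure D1:**
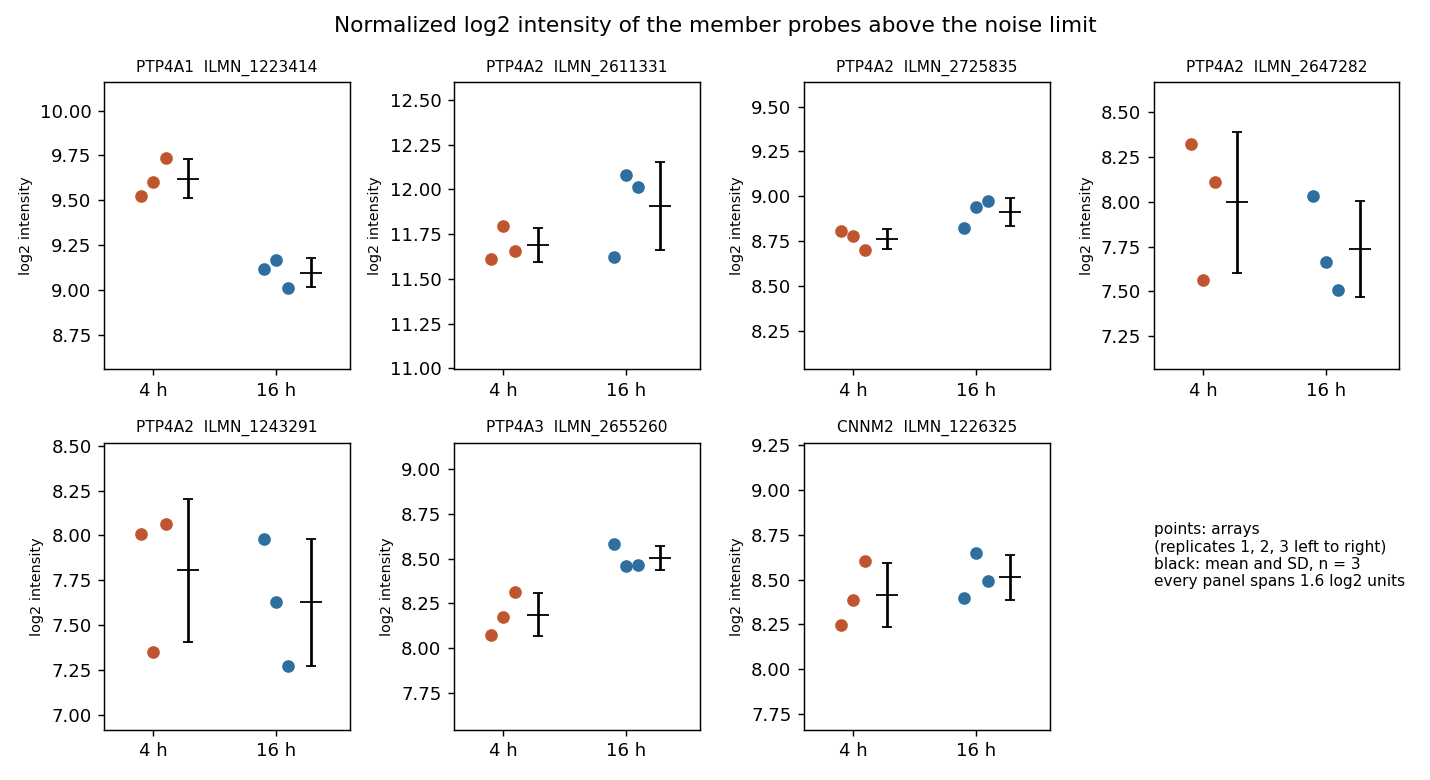
Normalized log2 intensity (y axis) of the 7 detected member probes at 4 h and 16 h; points are arrays, and black marks give the mean and SD of 3 arrays. PTP4A1 lies higher at 4 h, PTP4A3 and PTP4A2 probe ILMN_2725835 lie lower, and the others overlap, the brightest PTP4A2 probe among them.

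PTP4A3 (PRL-3), the paralog best known from metastatic tumours, was not higher at 4 h. Its detected probe (ILMN_2655260) had deposited intensities of 279, 228.8 and 332.3 at 4 h and of 277.8, 261.8 and 206.6 at 16 h, which overlapped. Normalized log2 values were 8.07, 8.18 and 8.31 at 4 h and 8.58, 8.46 and 8.47 at 16 h. All 3 values at 4 h were thus below those at 16 h relative to the other transcripts. The log2 change was -0.32 (SE 0.081, 95% interval -0.50 to -0.13), which missed the threshold (limma adjusted p = 0.537), and it was 0.15 without between-array normalization and 0.03 with median scaling, both below the median of detected probes in those settings (0.39 and 0.27). The other PTP4A3 probe (ILMN_1226848) exceeded the noise limit on no array.

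PTP4A2 (PRL-2), the most widely expressed paralog, was read by 4 probes that fell into 2 pairs. The brightest (ILMN_2611331) had deposited intensities of 3907.1, 3797.4 and 3719 at 4 h and of 2770.7, 3825.6 and 3183.7 at 16 h. Its normalized log2 values were 11.61, 11.79 and 11.66 at 4 h and 11.62, 12.08 and 12.01 at 16 h, with 16 h replicate 1 among the 4 h values. The log2 change was -0.22 (SE 0.12, 95% interval -0.49 to 0.05, limma adjusted p = 0.924); it was 0.06 with median scaling and 0.23 without between-array normalization, again below the median of detected probes. The next probe (ILMN_2725835) gave 8.81, 8.78 and 8.70 at 4 h and 8.82, 8.94 and 8.97 at 16 h, with a log2 change of -0.15 (SE 0.071, 95% interval -0.31 to 0.01, limma adjusted p = 0.919). Its normalized time points did not overlap. The margin, between 4 h replicate 1 and 16 h replicate 1, was smaller than either SD. Deposited intensities of this probe ran the other way. The 4 h arrays read 508.1, 387.6 and 459.1, each above the 16 h arrays (337.4, 386 and 316), narrowly so for replicate 2. The ratio of means was 1.30. Its log2 change was 0.21 with median scaling and 0.34 without between-array normalization, below the detected median in both settings (0.27 and 0.39).

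The other pair of PTP4A2 probes had higher means at 4 h than at 16 h, with a wide spread between replicates and overlapping time points. Probe ILMN_2647282 had deposited intensities of 345.1, 125.7 and 280 at 4 h and of 173.2, 124.1 and 83.2 at 16 h, and probe ILMN_1243291 had 263.5, 99.6 and 268.9 at 4 h and 165.4, 119.1 and 64.5 at 16 h. On both, 4 h replicates 1 and 3 and 16 h replicate 1 were the brightest after normalization, the same 3 arrays that had the most 18S ribosomal RNA signal. The mean normalized log2 intensity of these 3 arrays exceeded that of the other 3 by 0.58 for ILMN_2647282 and 0.60 for ILMN_1243291. Of all detected probes, 10.2% were higher on those 3 arrays without overlap, and 119 and 98 of the 14941 had a larger difference than these 2 probes. The deposited means were 1.97-fold and 1.81-fold brighter at 4 h. Log2 changes between time points were 0.26 (SE 0.19, 95% interval -0.18 to 0.70, limma adjusted p = 0.953) and 0.18 (SE 0.21, 95% interval -0.31 to 0.66, limma adjusted p = 0.968). They exceeded the changes of 96.1% and 89.5% of detected probes. With 1 array left out they ranged from 0.10 (without 4 h replicate 1) to 0.48 (without 4 h replicate 2) and from 0.0026 (without 16 h replicate 3) to 0.41 (without 4 h replicate 2). Within the 3 arrays with the most 18S signal the changes were 0.18 and 0.06, and within the 3 with the least they were -0.03 and -0.10. The part of the 18S signal in these values was not tested. Averaging all 4 probes gave PTP4A2 a log2 change of 0.02, so its sign depended on which probes were read.

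**Figure D2:**
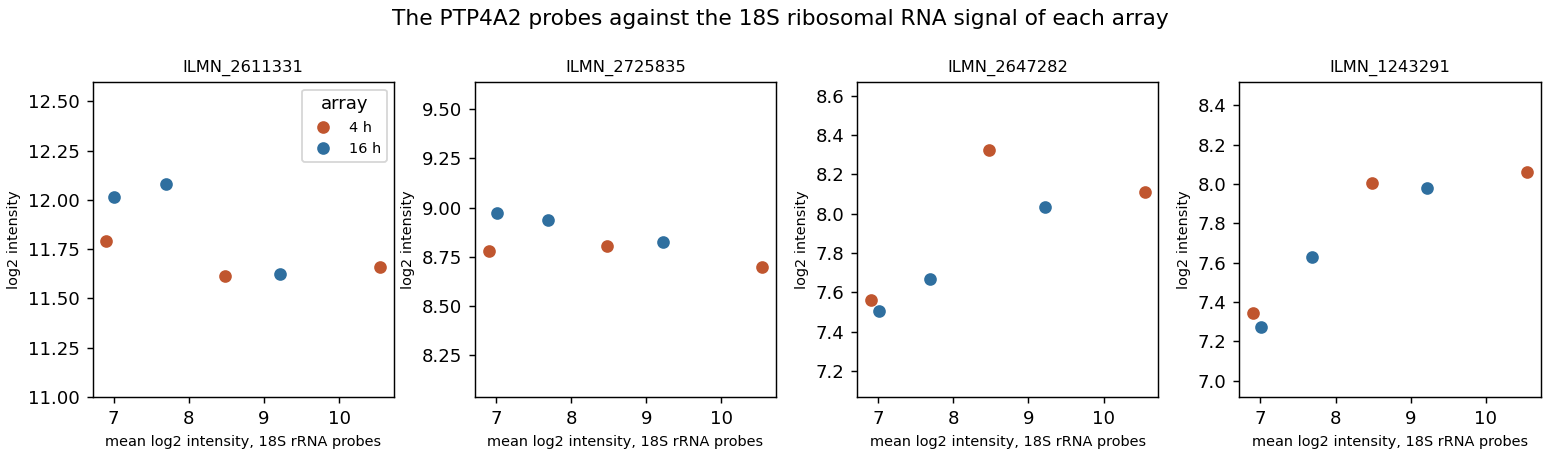
Normalized log2 intensity of each PTP4A2 probe (y axis) against the mean normalized log2 intensity of the 3 18S ribosomal RNA probes (x axis); each point is 1 array, coloured by time point. The pair on the right is brighter on the 3 arrays with the most 18S signal, by 0.58 and 0.60, whereas the pair on the left is not.

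To set PTP4A1 beside its paralogs, the difference between 2 probes was taken within each array, which cancels any scaling of the array that acts equally on both. PTP4A1 minus PTP4A3 was 1.45, 1.42 and 1.42 at 4 h and 0.53, 0.70 and 0.54 at 16 h in log2 units. The difference between these probes was therefore larger on every 4 h array, by a mean of 0.84 between the time points. PTP4A1 minus the brightest PTP4A2 probe was -2.09, -2.19 and -1.92 at 4 h and -2.51, -2.92 and -3.00 at 16 h. This too was higher on every 4 h array, by a mean of 0.74 between the time points, or 0.51 when all PTP4A2 probes were averaged. The difference from ILMN_2725835 was also higher on all 4 h arrays, by a mean of 0.67. Against ILMN_2647282 it was 1.20, 2.04 and 1.62 at 4 h and 1.08, 1.498 and 1.501 at 16 h, and against ILMN_1243291 it was 1.52, 2.25 and 1.67 at 4 h and 1.13, 1.54 and 1.74 at 16 h. These time points overlapped, with mean differences of 0.26 and 0.35, so the pattern held for 2 of the 4 PTP4A2 probes. PTP4A1 minus CNNM2 was 1.27, 1.21 and 1.13 at 4 h and 0.72, 0.52 and 0.52 at 16 h, a change of 0.62. Levels of different probes cannot be compared, so only the change of each difference carries meaning. PTP4A1 was chosen by its change, so its difference from a probe that changed little would tend to be higher at 4 h too. How many of all detected probes would show this was not counted, and these differences are not tested.

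**Figure D3:**
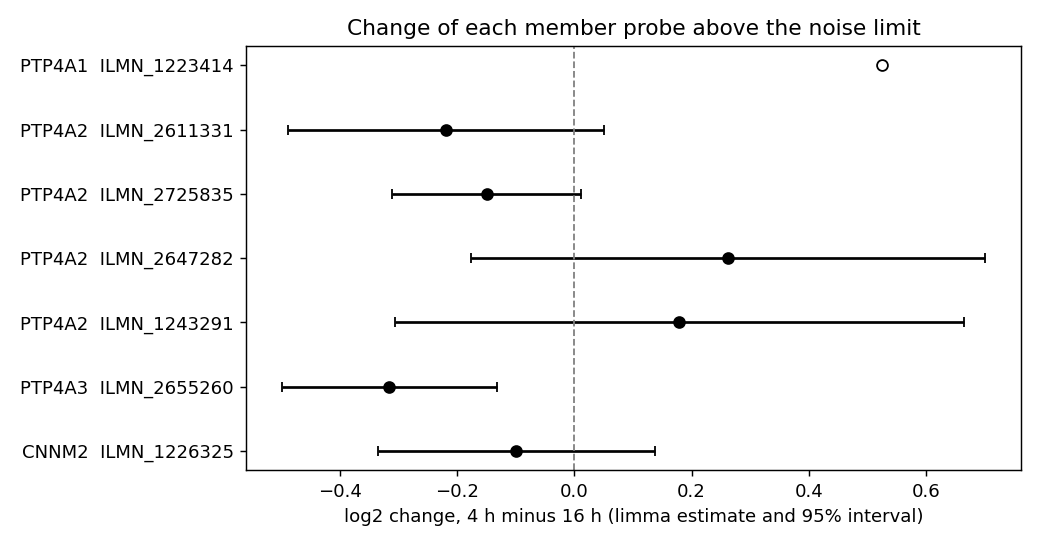
Log2 change from 16 h to 4 h (x axis) of the 7 detected member probes, with limma 95% intervals; PTP4A1, chosen by its change, is an open point without an interval. PTP4A1 stands at 0.52, PTP4A3 at -0.32, and the intervals of the 4 PTP4A2 probes and of CNNM2 include 0.

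Of the CNNM partners, CNNM2 was the 1 gene detected. Its probe ILMN_1226325 had deposited intensities of 325, 276.6 and 422.6 at 4 h and of 239, 306.5 and 211.1 at 16 h. Normalized log2 values were 8.25, 8.39 and 8.60 at 4 h and 8.40, 8.65 and 8.49 at 16 h, with the time points interleaved. The log2 change was -0.10 (SE 0.10, 95% interval -0.34 to 0.14, limma adjusted p = 0.963), and it was 0.25 with median scaling and 0.37 without between-array normalization, where the median detected probe was at 0.27 and 0.39. The other CNNM2 probe (ILMN_1223726) ranged from 3 to 11.7 intensity units and exceeded the noise limit on no array.

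CNNM3 was at the edge of detection. Probe ILMN_2714372 exceeded the limit on 16 h replicate 2 alone, at 15.9, with values from 6.3 to 8.7 on the other arrays. Probe ILMN_1216036 exceeded it on 4 h replicate 3 alone, at 13.3, and was otherwise between 1.5 and 10.9. Its deposited values were 10, 10.9 and 13.3 at 4 h and 4.5, 6.9 and 1.5 at 16 h, below the limit on 5 arrays, and no change is given. All 3 probes of CNNM1 and the single probe of CNNM4 (ILMN_3003069) exceeded the limit on no array. Their deposited intensities lay between -6.8 and 9.2 for CNNM1 and between -4.1 and 2.5 for CNNM4. These transcripts were not detectable with these probes, which does not show that they are absent. The probe sequences were not used here, so probe position and match to near-identical copies were not checked.

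Other magnesium transport genes were then considered, from a list of 21 genes of which 19 had a probe and 11 exceeded the noise limit on 3 or more arrays. None passed the threshold in limma, against 0.0256% of the 11730 genes so measured, and 2 of the 11 had an unadjusted p under 0.05, against 11.2% of those genes. Their median log2 change was 0.09, with 7 above and 4 below 0, against a median of 0.00029 over all genes (5873 above and 5857 below 0), and the range was -0.24 to 0.22. NIPAL2, of the NIPA family of magnesium transporters, had normalized log2 means of 10.33 ± 0.06 and 10.11 ± 0.07 (SD, n = 3 each) for 4 h and 16 h, a log2 change of 0.22 (limma adjusted p = 0.741). SLC41A3, a solute carrier of the SLC41 magnesium transporter family, had a log2 change of -0.24 (limma adjusted p = 0.887). SLC41A2 changed by 0.16 (limma adjusted p = 0.946) and TRPM7, a channel fused to a kinase that admits magnesium, by -0.10 (limma adjusted p = 0.979). TRPM6, SLC41A1, the claudins CLDN16 and CLDN19, and MAGT1 exceeded the limit on no array with the probes that represent them.

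PRL proteins end in a CAAX box, which is farnesylated and then trimmed and methylated. All 6 genes listed for these steps were detected, and 0 passed the threshold in limma (0.0256% of all measured genes) or had an unadjusted p under 0.05 (11.2%). The median log2 change was 0.11, with 5 above and 1 below 0. Both subunits of farnesyltransferase were close to 0, FNTA at 0.04 (SE 0.090) and FNTB at 0.0045 (SE 0.11). PGGT1B, the beta subunit of the geranylgeranyl transferase, changed by 0.19 and RCE1, the CAAX protease, by 0.22 (limma adjusted p = 0.924 and 0.938), whereas ICMT, the methyltransferase, changed by -0.18 (limma adjusted p = 0.946).

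Related cysteine phosphatases numbered 17, of which 13 exceeded the limit on 3 or more arrays. Of these, 0 passed the threshold in limma (0.0256% of all measured genes) and 1 had an unadjusted p under 0.05 (11.2%). The median log2 change was 0.02, with 8 above and 5 below 0, and the range was -0.24 to 0.17. CDC14A changed by 0.17 (limma adjusted p = 0.914). DUSP3 changed by -0.24 (limma adjusted p = 0.951) and PTPMT1, a mitochondrial phosphatase, by -0.11 (limma adjusted p = 0.970).

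**Figure D4:**
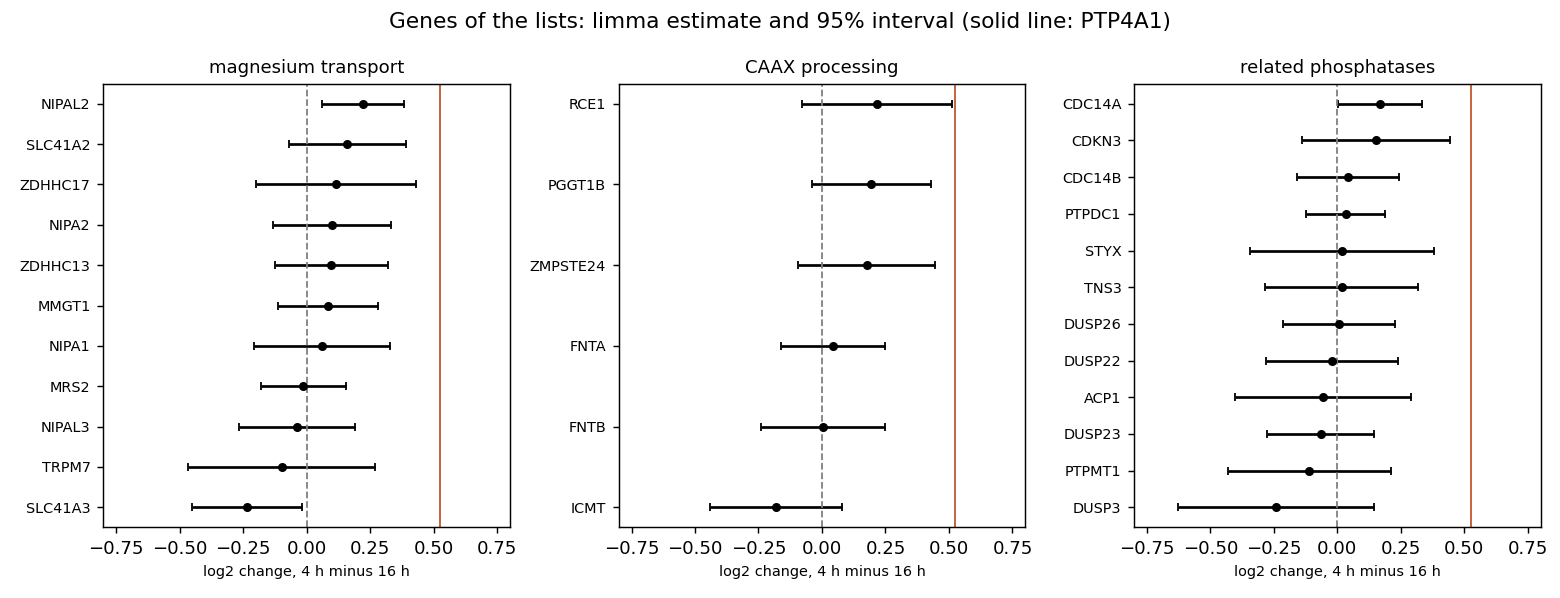
Log2 change from 16 h to 4 h (x axis) with limma 95% intervals for the measured genes of the magnesium transport, CAAX processing and related phosphatase lists, 1 related phosphatase being left out; the solid line marks PTP4A1 at 0.52. Every point lies between -0.24 and 0.22.

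The transcripts whose pattern over the 6 arrays was most like that of PTP4A1 were sought among 13325 named detected probes, by Pearson's r of normalized log2 intensity. The highest r was that of PIK3R3 (0.997), a regulatory subunit of PI 3-kinase, followed by N4BP2 (0.993), PTK2 (0.989), which encodes focal adhesion kinase, SYAP1 (0.987) and FAM101A (0.986). Their log2 changes were 0.36, 0.27, 0.23, 0.10 and 0.42. All 5 are extremes picked from many probes measured on the same arrays, and the r is a description. For the members, r with PTP4A1 was -0.76 for PTP4A3, -0.56 and -0.88 for the brighter pair of PTP4A2 probes, 0.43 and 0.37 for the other pair and -0.14 for CNNM2. These values mostly restate the difference between 2 time points.

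Finally, each detected member probe was followed through the processing settings. These are not independent: the noise filter, the variance option and the replicate block cannot move a log2 change from its main value. The block on the widest 18S gap sets 4 h replicate 3 apart and nearly repeats the fit without that array (0.466 and 0.464 for PTP4A1). PTP4A1 was chosen by its change, so its place in these settings is no test. Relative to the median of detected probes, PTP4A1 was higher by 0.46 to 0.62 in all 18 settings in which single probes were read, and it exceeded between 98.2% and 99.8% of detected probes. In the same settings PTP4A3 was below that median by 0.24 to 0.39, the brightest PTP4A2 probe by 0.12 to 0.36 and CNNM2 by 0.02 to 0.19. PTP4A2 probe ILMN_2725835 was below it by 0.05 to 0.20. The other pair of PTP4A2 probes went the other way, with ILMN_2647282 above the median by 0.08 to 0.48, and ILMN_1243291 between -0.02 and 0.41 from it.

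**Figure D5:**
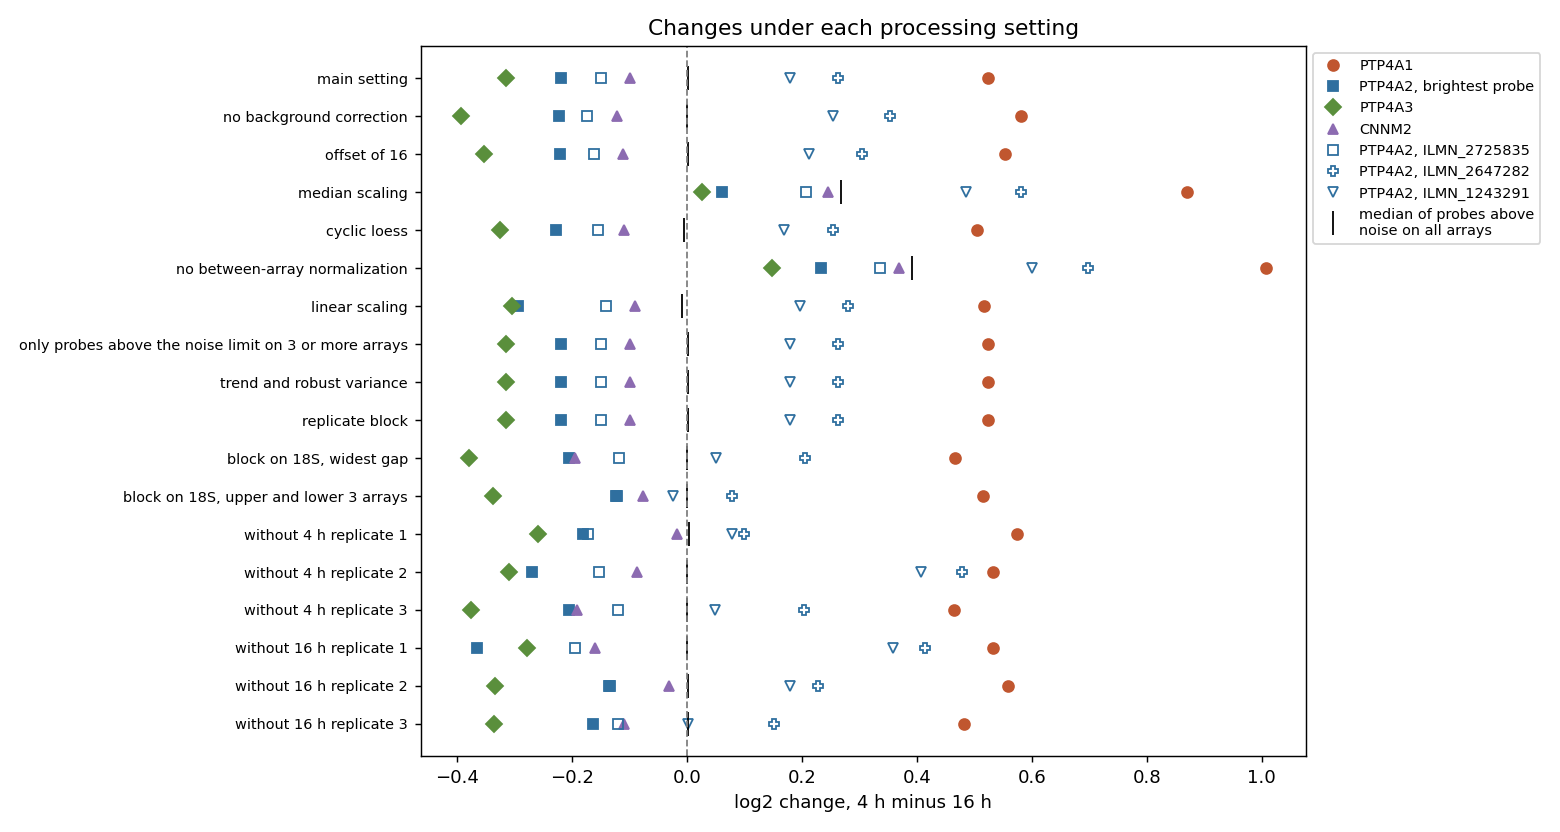
Log2 change from 16 h to 4 h (x axis) of the 7 detected member probes in each of 18 settings (y axis); black ticks give the median of detected probes and open symbols the other PTP4A2 probes. PTP4A3, CNNM2 and 2 PTP4A2 probes lie left of the tick, whereas ILMN_2647282 lies right of it, as does PTP4A1, which was chosen for this.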

How the data were processed

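RNA of 6 mGLUTag samples was hybridized to a mouse WG-6 V2 Illumina BeadChip. The deposited intensity values are linear, background subtracted and not normalized between arrays by the authors; the software and its settings are not given in the sources used here, and no detection p-values are used. The authors name limma without a normalization. Here R 4.3.3 and limma 3.58.1 were used: normexp (offset 50), quantile normalization, log2, then lmFit and eBayes over all 45281 probes with time as the sole factor, two-sided, Benjamini-Hochberg threshold 0.05. The offset shrinks changes of dim probes, and quantile normalization hides a change shared by most transcripts. The noise limit is the 99th percentile of an array's below-zero values with the sign turned; no change is given for genes that passed it on under 3 arrays. A gene was read by its probe with the highest mean, and list genes carry present RefSeq symbols (NIPAL2 is NPAL2 on the array, and FAM101A is now RFLNA); 7994 probes were matched by a synonym in RefSeq and 9527 by none. Members and lists were chosen with earlier results of these data known. From each list the 2 measured genes with the smallest p in each direction are named, except 1 related phosphatase that is counted but not reported by name here, and others where their role or their lack of signal is described. The number of arrays limits precision; 3 against 3 cannot give an exact two-sided permutation p under 0.1. The fit was tested on simulated data. Motifs were searched with Python 3.11.15.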

Additional observations from a re-analysis of the deposited data

How the results depend on the processing

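The call counts depended on the setting. Against 4 probes called over the whole table (2451 with an unadjusted p under 0.05), 29 were called without background correction, 248 with median scaling, 2308 without between-array normalization, 2 with cyclic loess and 1 with trend and robust variance. Calls fell to 0 in limma with an offset of 16, with the noise filter, with the replicate block and with either block on the 18S signal (2486, 1029, 2480, 2646 and 2655 probes with an unadjusted p under 0.05), and to between 0 and 0 when any 1 array was left out (between 1844 and 3209). The count of member probes called was 0, with the replicate block and with any 1 array left out too, but 1 with median scaling and 1 without between-array normalization; that 1 is PTP4A1, which was chosen by its change, so the count is no test of it, and 0 other member probes were called. Without between-array normalization, 2 of 11 magnesium transport genes, 2 of 6 CAAX processing genes and 2 of 13 related phosphatases were called, all higher, where 15.3% of the 11730 measured genes were called, all higher too. The log2 change of PTP4A1 was 0.87 with median scaling and 1.01 without between-array normalization (detected median 0.27 and 0.39), and between 0.46 and 0.57 when 1 array was left out. The same 2 settings turned the sign of PTP4A2 (0.061 and 0.23), PTP4A3 (0.026 and 0.15) and CNNM2 (0.25 and 0.37); both keep brightness shared by the 4 h arrays. Averaging a gene's probes gave PTP4A2 0.018, the mean of its 4 probe changes, and so moved PTP4A1 minus PTP4A2 to 0.51. Removing background correction and its offset moved PTP4A1 minus PTP4A3 to 0.97, with PTP4A1 at 0.58 and PTP4A3 at -0.39. The cause of that second shift was not tested. With 1 array left out, PTP4A1 minus PTP4A2 was between 0.65 and 0.90 and PTP4A1 minus PTP4A3 between 0.81 and 0.89. The main fit did not treat the shared numbering as pairing. Deviations of same-numbered arrays correlated at 0.25, 0.17 and -0.49, which does not settle whether same-numbered samples shared a culture. The widest gap in 18S signal set 4 h replicate 3 alone, so the block on the upper and lower 3 arrays was added after seeing the data.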
